A study of Nothobranchius furzeri with 20 samples.

Results

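Skin of male turquoise killifish (Nothobranchius furzeri) at 10 weeks of age was compared with skin at 7 weeks. The 5 libraries labelled 10 weeks and the 5 labelled 7 weeks were taken by their age label, out of 20 libraries at 4 ages. All fish were males of the GRZ strain, an inbred, short-lived laboratory strain, and no treatment is given, so age is the one labelled difference. The library titles carry different numbers, consecutive at 10 weeks and not at 7 weeks, and an effect of their order was not tested. Nothing in the labels ties a library to a fish of its own, and the p-values therefore weigh age against a spread that may be partly technical. The 10 weeks libraries held 21616172 to 32418365 counts and the 7 weeks libraries 22069927 to 29724151 counts. Of 26739 gene IDs in the table, 19192 had enough counts to be tested, and these held 99.93% to 99.98% of the counts of the 10 libraries.

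Fish skin has an epidermis of living keratinocytes and mucous cells over a dermis that is rich in collagen and carries the scales, together with pigment cells, nerves, vessels and immune cells. GRZ killifish grow and mature within weeks, age within months, and the males develop bright body colours. Bulk RNA gives relative amounts: fewer cells of a type and less RNA per cell cannot be told apart. The table names genes by ID alone and the RefSeq gene table of the species (assembly NfurGRZ-RIMD1) holds none of the 26739, so no ID could be given a symbol, a role or a sequence, and the tissue label could not be checked against marker genes. The genes are therefore described by how much they changed, how abundant and how long they were, and how evenly the change was shared by the libraries.

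Among the 10 libraries, 10 weeks replicate 4 and 7 weeks replicate 3 stood apart. Each library was set against the average of the rest of its age, with 1 minus Spearman's rho of log2 CPM as the distance (CPM, counts per 1000000 scaled with TMM factors). The distance was 0.123 for 10 weeks replicate 4, against 0.0189 to 0.0309 for the other 10 weeks libraries. It was 0.0649 for 7 weeks replicate 3, against 0.0236 to 0.0313 for the other 7 weeks libraries. The mean distance was 0.0456 ± 0.0436 at 10 weeks and 0.0350 ± 0.0170 at 7 weeks (SD, n = 5 each; two-sided exact permutation test, p = 0.810). Distances within an age share libraries and were not recomputed for each split, so this p is only a rough guide.

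In edgeR's quasi-likelihood test at an adjusted p under 0.05, 2009 genes were higher at 10 weeks (10.5% of the tested genes) and 2423 were lower (12.6%), together 4432 or 23.1%. Without both libraries that stand apart, 1765 genes were higher and 1898 lower, together 3663 of 19123 (19.2%), and 3443 of the 4432 calls were among them with the same direction. The changes of both directions were of like size. The median log2 fold change was 1.05 among the higher genes and −1.06 among the lower genes, close to 2-fold. The median standard error (SE) was 0.263 and 0.264, against 0.316 for all tested genes. Each SE is the absolute log2 fold change over the square root of the test's F statistic. A call needs a large F, so the smaller SE of called genes follows in part from the selection. Of the higher genes, 46.0% changed less than 2-fold, 44.4% changed 2 to 4-fold, 8.06% changed 4 to 8-fold and 1.54% (31 genes) more than 8-fold. Of the lower genes, 45.2% changed less than 2-fold, 44.7% changed 2 to 4-fold, 8.96% changed 4 to 8-fold and 1.16% (28 genes) more than 8-fold. TMM factors centre the bulk of the genes, so the changes are relative to it: the median log2 fold change of all tested genes was −0.01, and 49.6% of them had a positive value. On library totals the median was −0.098.

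**Figure D1:**
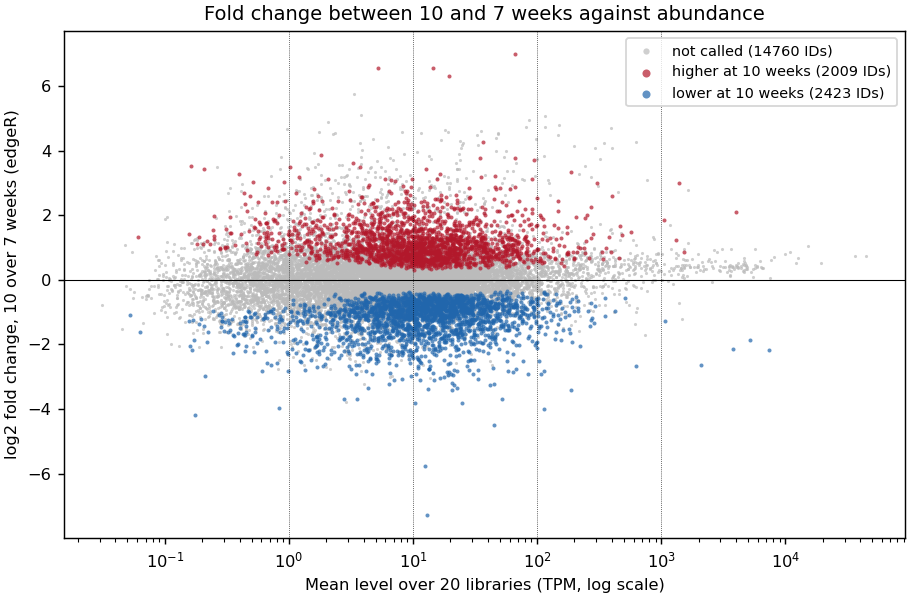
Each point is a tested gene ID, with its mean level over the 20 libraries in TPM on a log axis and its log2 fold change, 10 over 7 weeks, on the vertical axis. Dotted lines mark 1, 10, 100 and 1000 TPM. The 2009 IDs called higher and 2423 called lower lie mostly between 1 and 100 TPM, while 5 called lower and 5 called higher lie above 1000 TPM.

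Calls were most frequent among genes of middle abundance. Levels were compared between genes per length, as TPM (counts divided by gene length and scaled to the same sum in each library), averaged over all 20 libraries. Among the 7698 tested genes at 10 to 100 TPM, 13.6% were higher at 10 weeks and 17.3% were lower, so that 30.9% were called. The share called was 20.2% of 8458 genes at 1 to 10 TPM, 8.86% of 2156 genes under 1 TPM, 19.3% of 740 genes at 100 to 1000 TPM and 7.14% of 140 genes over 1000 TPM. The class at 10 to 100 TPM had the highest share on leaving out any of the 20 libraries. Under 1 TPM the share was 5.06% without 7 weeks replicate 2, 5.33% without 10 weeks replicate 2, 5.66% without 7 weeks replicate 4 and 5.89% without 10 weeks replicate 5. Over 1000 TPM it was 4.29% without 10 weeks replicate 3 and also without 7 weeks replicate 2.

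Depth and spread both varied along this scale. The median gene under 1 TPM rested on a mean of 18.4 counts per library, against 145 counts at 1 to 10 TPM, 696 at 10 to 100 TPM and 36412 over 1000 TPM. The spread between libraries of an age, as the median SD of log2 CPM, was smallest at 10 to 100 TPM, at 0.329 at 10 weeks and 0.290 at 7 weeks. Over 1000 TPM it was 0.510 at 10 weeks and 0.392 at 7 weeks, although counting error is smallest there. The size of change of the median gene differed little, with an absolute log2 fold change of 0.492 at 10 to 100 TPM and 0.434 over 1000 TPM.

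**Figure D2:**
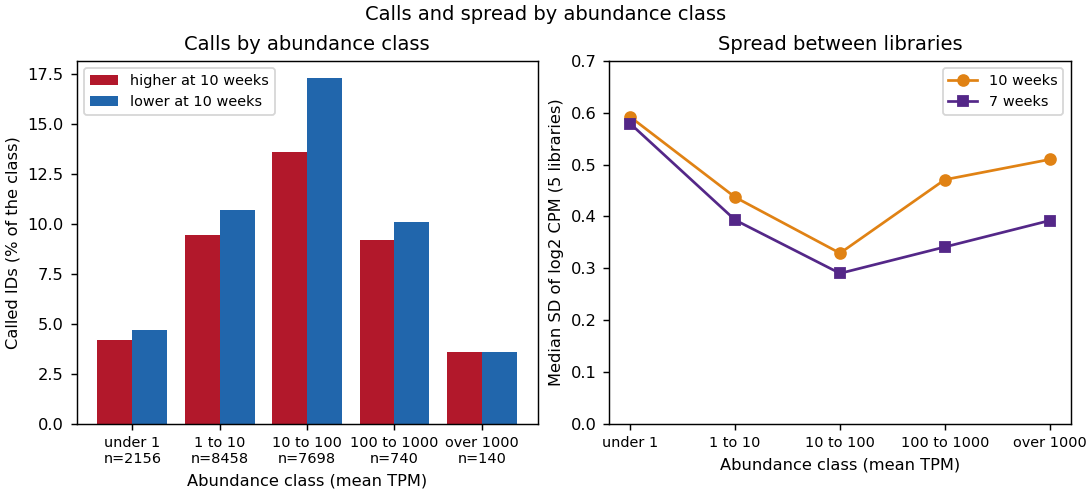
Left, bars give the percentage of tested IDs of each abundance class called higher or lower at 10 weeks. Right, points give the median SD of log2 CPM over the 5 libraries of each age. The percentage called is highest at 10 to 100 TPM, at 13.6% higher and 17.3% lower, where the SD is lowest, at 0.329 at 10 weeks and 0.290 at 7 weeks.

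Most of the most abundant genes had a positive fitted change at 10 weeks, but few passed the test one by one. Of the 140 genes over 1000 TPM, 92.1% had a positive log2 fold change, against 49.6% of all tested genes, while 5 were called higher and 5 lower. All 140 were read in the same 10 libraries and can move jointly, so the 92.1% is a share of genes and tests nothing. Summed per library, they held 28.2% to 50.8% of the counts at 10 weeks and 34.4% to 45.7% at 7 weeks. The lowest was 10 weeks replicate 4. Without the 3 long IDs that lost most, described further on, the ranges were 27.5% to 49.1% and 29.7% to 38%. The choice of these IDs by their loss lowers the 7 weeks range more by itself. Both pairs of ranges overlapped, which neither shows nor excludes a lean of these sums by age. Without the 3 IDs, 10 weeks replicates 1, 2 and 5 lay above all 7 weeks libraries, at 49.1%, 45.7% and 42.9%. Replicates 3 and 4 did not, at 36.4% and 27.5%. The 27.5% was again 10 weeks replicate 4, and the other 10 weeks libraries had 36.4% to 49.1%, which still overlapped the 7 weeks range. A sum of counts follows its largest IDs and does not measure the change of the median gene. The median log2 fold change of the 140 genes was 0.41, and that of the 740 genes at 100 to 1000 TPM was 0.26. The median was −0.01 at 10 to 100 TPM, −0.03 at 1 to 10 TPM and −0.07 under 1 TPM. With TMM, RLE and upper-quartile factors, library totals and recomputed RPKM, both upper classes kept a positive median. On library totals alone the medians were 0.28 over 1000 TPM and 0.15 at 100 to 1000 TPM, against −0.10 at 10 to 100 TPM. With RLE factors the median at 10 to 100 TPM was 0.03, so its sign depended on the scaling. Leaving out 10 weeks replicate 2 gave 0.29 over 1000 TPM and leaving out 10 weeks replicate 4 gave 0.60, the lowest and highest on leaving out any of the 20 libraries. At 100 to 1000 TPM the lowest was 0.16, without 10 weeks replicate 2, and the highest 0.35. The medians of the classes under 100 TPM took both signs, from −0.14 to 0.10.

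Most called genes were ordered alike in every library. Among the 5 by 5 libraries there are 25 pairs of a 10 weeks with a 7 weeks library, and a gene whose groups do not overlap is ordered alike in all 25. Overlap was judged on CPM and can depend on the scaling. This held for 1776 tested genes that were higher (9.25%) and 2330 that were lower (12.1%), together 21.4% of those tested. Of the 2009 called higher genes, 1504 (74.9%) did not overlap and 416 were ordered alike in 23 or 24 pairs. Of the 2423 called lower genes, 1932 (79.7%) did not overlap and 437 were ordered alike in 23 or 24 pairs. The genes were called on these same libraries and a low p favours separated groups, so these shares follow in part from the selection. Fewer than 20 pairs were found for 5 called higher and 3 called lower genes.

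Between groups that did not overlap the gap was usually narrow. The lowest library of the higher age lay above the highest library of the lower age by a median of 0.332 log2 units in the 1504 higher genes and 0.355 in the 1932 lower genes. A gap of 2-fold or more was found in 108 higher genes (7.18%) and 153 lower genes (7.92%). Larger changes were more often free of overlap, with 68.3% of higher genes changed less than 2-fold and 86.4% of those changed 4 to 8-fold. In lower genes the shares were 73.2% and 93.1%. The few genes changed more than 8-fold were free of overlap no more often, at 83.9% of 31 higher and 92.9% of 28 lower genes.

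The widest gap among called genes with a mean of at least 10 CPM at either age belonged to the higher gene with the largest fitted fold change. Its levels were 71.7, 415, 173, 183 and 184 CPM in the 10 weeks libraries, against 1.22, 0.65, 2.07, 0.92 and 3.12 CPM in the 7 weeks libraries. The lowest 10 weeks library thus stood 22.5-fold above the highest 7 weeks library (log2 fold change 6.99, SE 1.62, edgeR adjusted p = 0.00499). Within each of the other ages the gene varied more widely than this gap, from 1.24 to 165 CPM at 5 weeks and from 5.69 to 748 CPM at 14 weeks. Among lower genes the widest gap was that of a gene of 327 bases. It had 2.71, 1.68, 3.45, 4.03 and 3.63 CPM in the 10 weeks libraries, against 64.0, 66.7, 46.9, 44.0 and 25.4 CPM in the 7 weeks libraries. The highest 10 weeks library lay 6.20-fold below the lowest 7 weeks library (log2 fold change −3.99, SE 0.59, edgeR adjusted p = 0.000488). At the other ages this gene had 2.57 to 26.1 CPM (5 weeks) and 2.63 to 12.2 CPM (14 weeks), so the 5 weeks libraries reached the levels of both groups.

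The largest fitted fall was of another kind. The gene with a log2 fold change of −7.28 (SE 2.01, edgeR adjusted p = 0.0138) had 0.0475 to 1.04 CPM in the 10 weeks libraries, with a median of 0.272. In the 7 weeks libraries it had 0 to 306 CPM, with a median of 0.230. The groups overlapped, the median was the higher one at 10 weeks, and the 10 weeks library was the higher one in 15 of 25 pairs. The call rested on a single 7 weeks library with 6088 counts.

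Large fitted changes that did not pass the test also leaned on single libraries. A large change that fails the test has a wide spread by selection, so this pattern is partly built in. A fitted change of at least 4-fold was not called in 383 genes, of which 6 had groups that did not overlap. Over all tested genes 21.4% had groups that did not overlap. The highest of the 10 libraries was 10 weeks replicate 4 in 312 of the 383 genes and 7 weeks replicate 3 in 51. In those with a positive fold change, the highest 10 weeks library held a median of 92.7% of the summed CPM of its age. In those with a negative fold change, the highest 7 weeks library held a median of 74.6%.

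Each library resembled its own age over the called genes, to differing degrees. With a library left out of the average of its own age and then set against the averages of both ages, 10 weeks replicates 2, 3 and 5 were nearer to their own age in 95.3% to 97.6% of the 2009 higher genes. The share was 88.3% for replicate 1 and 78.7% for replicate 4. Of the 7 weeks libraries, replicates 2 and 4 were nearer to their own age in 99.4% and 99.5% of the 2423 lower genes, and replicate 5 in 75.3%. These shares come from different gene sets. Over the lower genes the 10 weeks libraries had 87.1% (replicate 4) to 97.3% (replicate 3). Over the higher genes the 7 weeks libraries had 86.6% (replicate 5) to 98.2% (replicate 4). Over all tested genes the share was 52.5% for 10 weeks replicate 4, 64.1% to 73.6% for the other 10 weeks libraries and 61.7% to 74.2% for the 7 weeks libraries. The called genes were chosen on these same libraries, so the shares compare libraries and test nothing. Overlap in a called gene ended most often on leaving out 10 weeks replicate 4 (350 genes), 7 weeks replicate 5 (336 genes) or 10 weeks replicate 1 (273 genes).

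No measure of the overall concentration of the transcriptome passed the test. The 100 most abundant IDs of a library held 41.8% ± 8.41 of its counts at 10 weeks and 41.7% ± 4.24 at 7 weeks (SD, n = 5 each; two-sided exact permutation test, p = 1). This near equality depended on how shares were taken. With length-scaled shares they held 55.1% ± 8.35 at 10 weeks and 50.2% ± 4.72 at 7 weeks (SD, n = 5 each; exact p = 0.278). Without the 3 long IDs that lost most, described further on, the shares were 40.9% ± 7.94 at 10 weeks and 35.2% ± 3.71 at 7 weeks (SD, n = 5 each; exact p = 0.198). These 3 IDs were chosen for their loss, which by itself lowers the 7 weeks share more, so this p tests nothing. The 1000 most abundant IDs held 69.0% ± 6.69 at 10 weeks and 66.9% ± 4.01 at 7 weeks (SD, n = 5 each; exact p = 0.540). The 10 most abundant IDs held 19.0% ± 4.98 at 10 weeks and 22.1% ± 3.70 at 7 weeks (SD, n = 5 each; exact p = 0.270). The number of IDs that held 50% of the counts was 227 ± 158 at 10 weeks and 226 ± 108 at 7 weeks (SD, n = 5 each; exact p = 0.992). It ranged from 91 to 481 over the 10 weeks libraries, wider than the 137 to 408 of the 7 weeks libraries. The effective number of genes, the exponential of the Shannon entropy of the count shares, was 1738 ± 851 at 10 weeks and 1658 ± 506 at 7 weeks (SD, n = 5 each; exact p = 0.857). At least 1 count was found for 21243 ± 339 IDs at 10 weeks and 21344 ± 349 IDs at 7 weeks (SD, n = 5 each; exact p = 0.635).

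**Figure D3:**
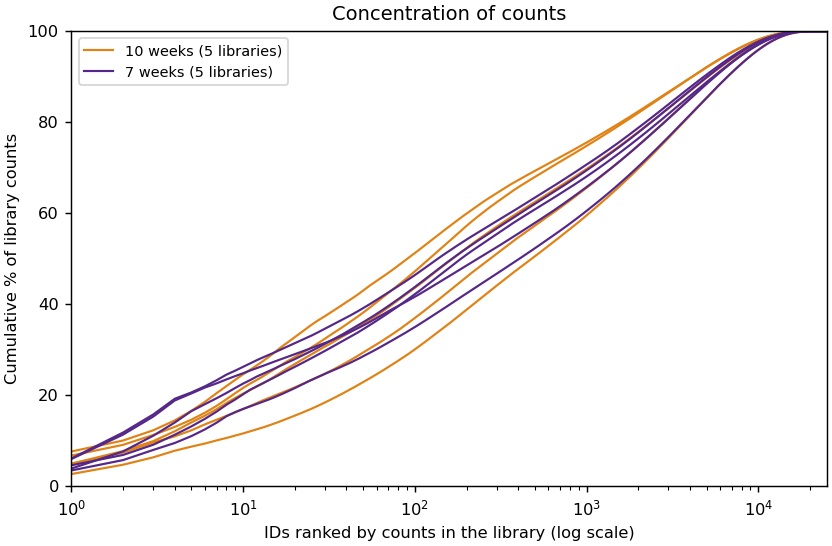
Each line is a library, with its IDs ranked by counts on a log axis and the cumulative percentage of the library's counts on the vertical axis. The 10 weeks lines spread around the 7 weeks lines, and the first 100 IDs hold 30.0% to 51.2% of the counts at 10 weeks and 34.9% to 46.4% at 7 weeks.

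The shares of counts by abundance class overlapped as well. Genes over 1000 TPM held 41.6% ± 9.03 of the counts at 10 weeks and 41.2% ± 4.36 at 7 weeks (SD, n = 5 each; exact permutation test, p = 0.952). With length-scaled shares the class held 59.0% ± 9.43 at 10 weeks and 54.6% ± 4.90 at 7 weeks (SD, n = 5 each; exact p = 0.381). Without the 3 long IDs it held 40.3% ± 8.55 at 10 weeks and 34.2% ± 4.05 at 7 weeks (SD, n = 5 each; exact p = 0.198). The lower 7 weeks share here follows in part from the choice of these IDs by their loss, so this p tests nothing. Genes at 100 to 1000 TPM held 19.0% ± 1.25 at 10 weeks and 17.6% ± 0.618 at 7 weeks (SD, n = 5 each; exact p = 0.0635, adjusted p = 0.413 over the 13 measures of this kind). Genes at 10 to 100 TPM held 31.7% ± 5.91 at 10 weeks and 32.9% ± 3.10 at 7 weeks (SD, n = 5 each; exact p = 0.698). The share was 7.48% ± 2.06 at 10 weeks and 8.0% ± 1.36 at 7 weeks for genes at 1 to 10 TPM (SD, n = 5 each; exact p = 0.643). It was 0.220% ± 0.0865 at 10 weeks and 0.232% ± 0.0600 at 7 weeks under 1 TPM (SD, n = 5 each; exact p = 0.754). With 5 against 5 libraries the smallest p the exact test allows is 0.00794.

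The genes that held the counts differed more between the ages than within them at the median pair of libraries. Between the mean profiles of both ages 21.1% of the counts moved from one set of genes to another. The 25 pairs of a 10 weeks with a 7 weeks library differed by 15.7% to 38.4% of the counts, with a median of 27% in whole percent. Pairs within an age differed by 11.2% to 30.5% at 10 weeks, with a median of 21%, and by 12.2% to 23% at 7 weeks, with a median of 17%. The ranges overlapped, and no test was made of the difference. A distance between means of 5 libraries holds less of the spread between libraries than one between single libraries, so the 21.1% has no within-age value to be set against. In shares of counts, not scaled by length, the loss was concentrated and the gain was spread out. Here 23 IDs made up 50% of the lost share, and 98 IDs made up 50% of the gained share. Genes called lower accounted for 71.2% of the loss, and genes called higher for 22.4% of the gain. Of the 10 IDs with the largest loss 6 were called lower, and of the 10 with the largest gain 1 was called higher. Those 10 gains came to 5.28 percentage points of the counts, or 25% of the gain. Among the 100 largest losses 65 were called lower, and among the 100 largest gains 15 were called higher. Over all tested genes 12.6% were called lower and 10.5% higher, so the calls among the largest gains were near that share.

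The 2009 higher genes together held 9.06% ± 1.18 of the counts at 10 weeks and 4.32% ± 0.753 at 7 weeks (SD, n = 5 each). The 10 weeks libraries had 7.24%, 8.85%, 10.2%, 10.1% and 8.97%, against 4.16%, 3.42%, 5.09%, 3.84% and 5.10% in the 7 weeks libraries. The 2423 lower genes held 7.19% ± 0.370 at 10 weeks and 22.2% ± 6.34 at 7 weeks (SD, n = 5 each). They stood at 7.73%, 7.17%, 6.83%, 7.35% and 6.87% in the 10 weeks libraries, against 20.5%, 28.6%, 18.2%, 29.0% and 14.8% in the 7 weeks libraries. The ages did not overlap in either sum. The selection used these values, so no test is given.

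Libraries of the other ages had shares of both kinds between those means on average. The higher genes held 5.37% ± 0.925 of the counts at 5 weeks and 7.54% ± 1.03 at 14 weeks (SD, n = 5 each). The lower genes held 19.3% ± 6.38 at 5 weeks and 11.6% ± 3.36 at 14 weeks (SD, n = 5 each). Gene by gene, the 5 weeks mean lay between the 10 and 7 weeks means in 1747 of the 2009 higher genes and 2160 of the 2423 lower genes, and the 14 weeks mean lay between them in 1541 and 1968. The genes were chosen for their gap between 10 and 7 weeks, which makes room for other ages in between, so these counts support nothing. The median gene was nearer to 7 weeks at 5 weeks: higher genes stood 0.57 log2 units below their 10 weeks mean and 0.46 above their 7 weeks mean, and lower genes 0.64 above their 10 weeks mean and 0.43 below their 7 weeks mean. It was nearer to 10 weeks at 14 weeks: higher genes stood 0.26 log2 units below their 10 weeks mean and lower genes 0.28 above it.

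**Figure D4:**
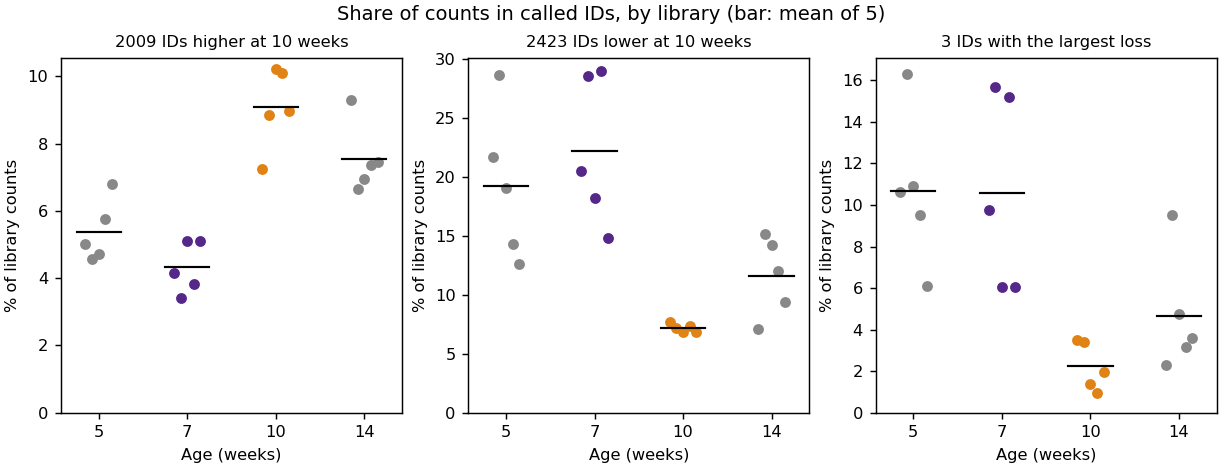
Points are libraries and bars are means of 5, as a percentage of each library's counts, by age in weeks. The higher genes hold 7.24% to 10.2% at 10 weeks and 3.42% to 5.10% at 7 weeks, the lower genes 6.83% to 7.73% at 10 weeks and 14.8% to 29.0% at 7 weeks, and the 3 IDs with the largest loss 0.934% to 3.49% at 10 weeks and 6.04% to 15.7% at 7 weeks.

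A large part of the lost share of counts came from 3 long, very abundant transcripts. Counts weigh long genes more, and their part in the loss was not computed with length-scaled shares. Per length, their mean levels were 1824, 941 and 1669 TPM at 10 weeks, against 11532, 5895 and 8287 TPM at 7 weeks. Together they held 2.23% ± 1.17 of the counts at 10 weeks and 10.6% ± 4.74 at 7 weeks (SD, n = 5 each), and made up 39.5% of the loss. Their sum was 3.49%, 3.39%, 1.36%, 0.934% and 1.98% in the 10 weeks libraries, against 9.78%, 15.7%, 6.04%, 15.2% and 6.05% in the 7 weeks libraries, with no overlap. The other 2420 lower genes held 4.96% ± 1.03 at 10 weeks and 11.6% ± 1.98 at 7 weeks (SD, n = 5 each). Their lowest and highest libraries had 3.78% and 6.41% at 10 weeks, against 8.73% and 13.7% at 7 weeks. Both parts thus varied more at 10 weeks than their sum did.

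The first of these, Nfu_g_1_023149, has a length of 6785 bases and fell to a mean of 8669 ± 6099 CPM in the 10 weeks libraries, against 38879 ± 19846 CPM in those of 7 weeks (SD, n = 5 each). Its levels were 15307, 14871, 3912, 2289 and 6968 CPM in the 10 weeks libraries, against 36414, 63174, 18046, 54884 and 21880 CPM in the 7 weeks libraries. All 10 weeks libraries lay below all 7 weeks libraries (log2 fold change −2.17, SE 0.57, edgeR adjusted p = 0.0106). By TPM it ranked 94 among all IDs at 10 weeks and 7 at 7 weeks.

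Nfu_g_1_013298, of 9137 bases, followed the same order of libraries. Its levels were 11519, 9890, 2237, 1466 and 5250 CPM in the 10 weeks libraries, against 26393, 44145, 12263, 36890 and 14528 CPM in the 7 weeks libraries. The mean was 6072 ± 4496 CPM over the 10 weeks libraries and 26844 ± 13827 CPM over those of 7 weeks (SD, n = 5 each; log2 fold change −2.14, SE 0.58, edgeR adjusted p = 0.0123). The gap was narrow in CPM, since 10 weeks replicate 1 stood at 11519 CPM and 7 weeks replicate 3 at 12263 CPM. It was wider in shares of counts, at most 0.908% at 10 weeks against at least 1.52% at 7 weeks. In TPM these limits were 1589 and 3014. In both IDs 10 weeks replicates 3 and 4 were the lowest of their age and 7 weeks replicates 2 and 4 the highest of theirs.

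The third ID of this kind, of 9459 bases, averaged 10862 ± 6954 CPM over the 10 weeks libraries and 39285 ± 20102 CPM over those of 7 weeks (SD, n = 5 each; log2 fold change −1.85, SE 0.53, edgeR adjusted p = 0.0162). Its groups overlapped in CPM: 10 weeks replicate 2, at 19039 CPM, stood above 7 weeks replicate 3, at 18360 CPM. The overlap depended on the scaling. In shares of counts the 10 weeks libraries had at most 1.47% and the 7 weeks libraries at least 2.25%. In TPM these limits were 2462 and 4319. At the other ages the 3 IDs together held 10.7% ± 3.69 of the counts at 5 weeks and 4.67% ± 2.84 at 14 weeks (SD, n = 5 each).

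Among genes called higher without overlap, the largest gain in mean CPM was that of Nfu_g_1_015914, of 1215 bases. Its levels were 8337, 6248, 3285, 2546 and 5106 CPM in the 10 weeks libraries, against 1354, 1197, 768, 1218 and 1399 CPM in the 7 weeks libraries. The mean was 5105 ± 2325 CPM over the 10 weeks libraries and 1187 ± 250 CPM over those of 7 weeks (SD, n = 5 each; log2 fold change 2.10, SE 0.44, edgeR adjusted p = 0.0027). The 7 weeks libraries lay close together, and the lowest 10 weeks library was above them all. By TPM it ranked 17 at 10 weeks and 84 at 7 weeks.

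Nfu_g_1_007620, of 540 bases, had the next largest gain among genes called higher without overlap. Its levels were 1336, 1233, 503, 633 and 1070 CPM in the 10 weeks libraries, against 169, 94.2, 96.5, 62.3 and 171 CPM in the 7 weeks libraries. The mean was 955 ± 369 CPM over the 10 weeks libraries and 119 ± 48.9 CPM over those of 7 weeks (SD, n = 5 each; log2 fold change 3.01, SE 0.58, edgeR adjusted p = 0.0017). It ranked 71 by TPM at 10 weeks and 244 at 7 weeks. Both IDs were widely spread at the other ages: Nfu_g_1_015914 had 1411 to 4046 CPM at 5 weeks and 1205 to 5234 CPM at 14 weeks, and Nfu_g_1_007620 had 101 to 697 CPM at 5 weeks and 104 to 1150 CPM at 14 weeks.

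**Figure D5:**
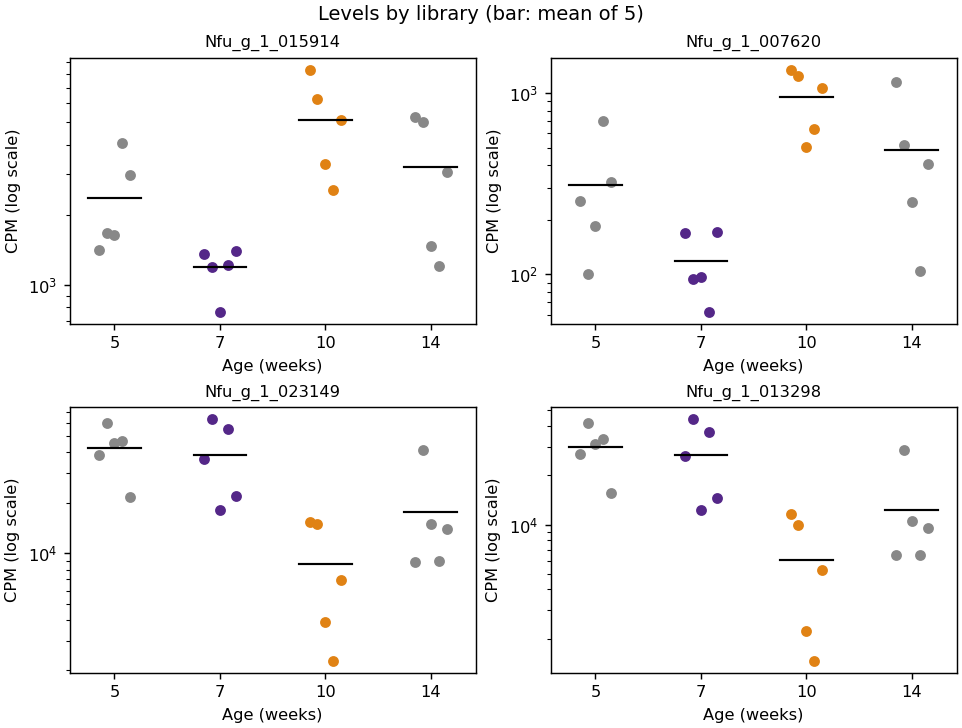
Points are libraries and bars are means of 5, in CPM on a log axis, by age in weeks. Nfu_g_1_015914 and Nfu_g_1_007620 are higher in all 10 weeks libraries than in all 7 weeks libraries, at least 2546 against at most 1399 CPM and at least 503 against at most 171 CPM. Nfu_g_1_023149 and Nfu_g_1_013298 are lower in all of them, at most 15307 against at least 18046 CPM and at most 11519 against at least 12263 CPM.

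Gene length was much alike in both directions. The median length was 2805 bases for higher genes and 2834 bases for lower genes, against 2674 bases for all tested genes. Over 5 equal groups of the tested genes by length, the share called higher was 9.77% to 11.5% and the share called lower 11.3% to 13.6%. The mean gene length per count, a measure added after the data were seen, was 4535 ± 157 bases at 10 weeks and 4966 ± 174 bases at 7 weeks (SD, n = 5 each; two-sided exact permutation test, p = 0.0159, adjusted p = 0.206 over 13 measures). Without the 3 long IDs it was 4443 ± 192 bases at 10 weeks and 4556 ± 238 bases at 7 weeks (SD, n = 5 each; exact p = 0.389). Leaving out long IDs chosen for their loss narrows this difference by selection.

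The most abundant genes were nearly the same at both ages. Of the 100 IDs with the highest mean TPM, 94 were shared. The list of 10 weeks held 4 called higher and 1 called lower, and that of 7 weeks held 1 called higher and 4 called lower. Over all tested genes 10.5% were called higher and 12.6% lower, so calls were rarer in both lists. Each list was ranked at its own age, which favours genes with the higher level at that age. No tested gene was at 0 counts in all libraries of one of the ages, so no tested gene went undetected throughout an age at this depth.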

How the data were processed

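Total RNA of male GRZ skin was made into TruSeq RNA version 2 libraries, per the labels' protocols. The authors deposited raw counts per gene ID and RPKM values. The submitters' processing notes name featureCounts 1.4.6-p4, STAR 2.4.1d and CASAVA 1.8.2. Build, annotation and strand setting were not given in the sources used here. Reads of genes that overlap, run antisense or are nearly identical may thus be split or shared.

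Counts were tested in edgeR 4.0.16 (R 4.3.3) after filterByExpr, with TMM factors, glmQLFit and glmQLFTest on 4 age means over 20 libraries, and Benjamini-Hochberg adjustment at 0.05. Log2 CPM used a prior count of 2. In the deposited RPKM table, rows were divided by a repeating series of 25 depths rather than by their own (99.9967% of values, within 0.1% or 0.001 RPKM). The table was used only to recover gene lengths, from which TPM was computed. Values per library were compared by exact permutation of 252 splits, adjusted over 13 measures.

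The rule for named genes gave at most 2 IDs per direction, those called without overlap that gained or lost most in mean CPM. The gene lists prepared were not tested, since no ID had a symbol. Members and rules were chosen with earlier results of these data known. Replicates are numbered in accession order. Alternatives covered scaling, filters, DESeq2 1.42.0, limma 3.58.1 and left-out libraries.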

Additional observations from a re-analysis of the deposited data

Results flagged for a closer look

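Of 42 groups of 5 libraries checked for a single distant value, 2 were flagged, where chance flags about 1 in 20 groups. The spread between libraries, as 1 minus Spearman's rho to the mean of the other libraries of the age, was 0.123 for 10 weeks replicate 4, against 0.0189 to 0.0309 for the rest of that age. It was 0.0649 for 7 weeks replicate 3, against 0.0236 to 0.0313 for the rest. Without both, 3663 genes were called between 10 and 7 weeks.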

How the results depend on the processing

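Between 10 and 7 weeks, 3212 to 4347 genes were called on leaving out 1 library of either age, with 1444 to 2243 higher and 1645 to 2478 lower, and 3212 to 4784 on leaving out any of the 20. Normalization, filter and tool gave 3436 (library totals) to 5301 (DESeq2), and the 2 ages fitted alone 5559. No count moved by over 1.5 times, and higher genes made up 40.1% to 52.3% of the calls, against 45.3%. Of the 4432 calls, 2 changed sign without 7 weeks replicate 2, and none in the other settings. The median of all tested genes was −0.118 on recomputed RPKM. The 4 named IDs passed in every setting.

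No measure of concentration passed the adjusted test in any setting, but a single measure could not pass it unless others were low too. The mean gene length per count without 7 weeks replicate 1 had an exact permutation p of 0.00794 and an adjusted p of 0.103. Failing the adjusted test is therefore no evidence that a measure stayed the same. The share in the 1000 most abundant IDs stayed higher at 10 weeks throughout, by 0.515 to 5.40 points. The mean gene length per count stayed lower at 10 weeks wherever it was taken, with differences of −493 to −113 bases. The signs of the other measures depended on the setting or the library. With length-scaled shares the difference, 10 minus 7 weeks, was 3.54 points for the 10 most abundant IDs, −280 for the effective number of genes, −21.2 for IDs holding 50% of the counts and −0.00792 points for the class of 100 to 1000 TPM. Without the 3 long IDs, chosen for their loss after the data were seen, these were 4.09, −598, −120 and −0.265. Without both libraries that stand apart, the effective number differed by −39.4, the IDs holding 50% by −17.0 and the spread by −0.00445. Leaving out 1 library gave −4.53 to −1.28 points for the 10 most abundant IDs, −2.34 to 2.96 points for the 100 most abundant IDs, −253 to 294 for the effective number, −62.4 to 46.4 for IDs holding 50%, −207 to 23.5 for IDs detected and −0.0116 to 0.0216 for the spread. For the classes under 1, 1 to 10, 10 to 100 and over 1000 TPM it gave −0.0481 to 0.0116, −1.30 to 0.0104, −3.35 to 0.232 and −1.96 to 3.71 points. The cause was not tested. No paired analysis was possible because the labels give no number shared between ages. Shares of counts given for single libraries have 95% Wilson intervals of at most ± 0.0189 percentage points, which cover counting error only, and genes under 1 TPM rested on few counts.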

Other observations

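Called genes of one direction lay next to each other in the row order of the deposited table more often than their share among all genes. The tested ID in the next row was also higher for 13.8% of the higher genes, against 10.5% of all tested genes, and also lower for 18.2% of the lower genes, against 12.6%. What the row order stands for is not given in the sources used here, and no test was made.

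Single genes were somewhat more spread at 10 weeks, where the SD of log2 CPM was the larger one in 57.8% of the tested genes. With both libraries that stand apart left out, at 4 libraries per age, it was so in 48.7%, with a median SD of 0.330 at 10 weeks and 0.332 at 7 weeks.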
